A study of Mus musculus with 27 samples.

Results

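The 10 genes described here, of 24418 rows in the deposited table, carry out glucose uptake and glycolysis. They were picked by symbol, whatever their level. Slc2a1 encodes the glucose transporter GLUT1. Hk1 and Hk2 encode hexokinases, Gpi1 glucose-6-phosphate isomerase, Pfkl the liver-type phosphofructokinase, Aldoa aldolase A, Gapdh glyceraldehyde-3-phosphate dehydrogenase, Pgk1 phosphoglycerate kinase and Ldha the A subunit of lactate dehydrogenase. Eno1b is annotated at another locus as a near copy, by sequence, of Eno1, the gene of alpha-enolase. All 10 were in the table and passed the filter on low values (at least 1 FPKM in at least 3 libraries, where FPKM is a read count scaled to transcript length and library size).

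Glycolysis splits glucose into pyruvate in the cytosol and yields ATP and NADH without oxygen. A transporter lets glucose into the cell, hexokinase traps it as glucose-6-phosphate, and phosphofructokinase commits it to the pathway. Lactate dehydrogenase turns pyruvate into lactate and regenerates NAD+. Blood stem cells of the adult marrow are known for a strong reliance on this route, and many of its genes are known targets of the hypoxia-inducible factors and of Myc.

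RNA was measured in purified HSPCs (haematopoietic stem and progenitor cells) of C57BL/6 mice, in 9 groups of 3 libraries. The 3 groups from before birth are PL and FL at E12.5 and FL at E16.5, where E is embryonic day. The 6 BM groups are Perinatal and ages of 1, 3, 4, 6 and 8 weeks (written 1w BM to 8w BM). Fetal liver and bone marrow are the usual readings of FL and BM; the labels spell out none of FL, BM and PL. No mutation or treatment is named in any group, and the labels give neither the markers of the sort nor whether each library came from its own animals. P-values therefore measure the spread between these libraries, which may be technical.

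Before the results, the E12.5 PL libraries need a caution, because they hold strong markers of other cells beside those of HSPCs. Of 13 trophoblast markers, 11 averaged at least 1 FPKM there and 2 in E12.5 FL, and their sum was 3758 to 4363 FPKM in E12.5 PL and 16.4 to 17.7 FPKM in E12.5 FL, where Hand1, Prl3d1 and Elf5 were at 0. The 10 markers of stroma and mesenchyme, of which 10 in E12.5 PL and 3 in E12.5 FL averaged at least 1 FPKM, summed to 5319 to 12453 FPKM in E12.5 PL and to 12.7 to 15.9 FPKM in E12.5 FL. Ptprc, the gene of the pan-leukocyte antigen CD45, averaged 7.91 ± 2.78 FPKM in E12.5 PL and 65.3 ± 2.31 FPKM in E12.5 FL (SD, n = 3 each), and Kit, a receptor of blood progenitors, averaged 62.7 ± 11 FPKM in E12.5 PL and 130 ± 4.44 FPKM in E12.5 FL. In the other 8 groups Ptprc averaged 62.8 to 77.9 FPKM. Both genes are from a list of 13 HSPC and leukocyte markers, of which 12 in E12.5 PL and 13 in E12.5 FL averaged at least 1 FPKM. The list summed to 455 to 477 FPKM in E12.5 PL and 894 to 933 FPKM in E12.5 FL. Procr (148 ± 58.8 in PL and 4.14 ± 0.638 FPKM in FL) and Gata2 (73.8 ± 8.56 and 44.4 ± 3.12 FPKM) averaged higher in E12.5 PL, and the rest of the list lower. Library totals ran from 519810 to 763033 FPKM. Counts are not given, so absolute depth is unknown; from the steps between low values, the mean depth of a group relative to the median library was 1.27 in E12.5 PL, 1.52 in E12.5 FL and 0.81 to 1.05 elsewhere.

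**Figure D1:**
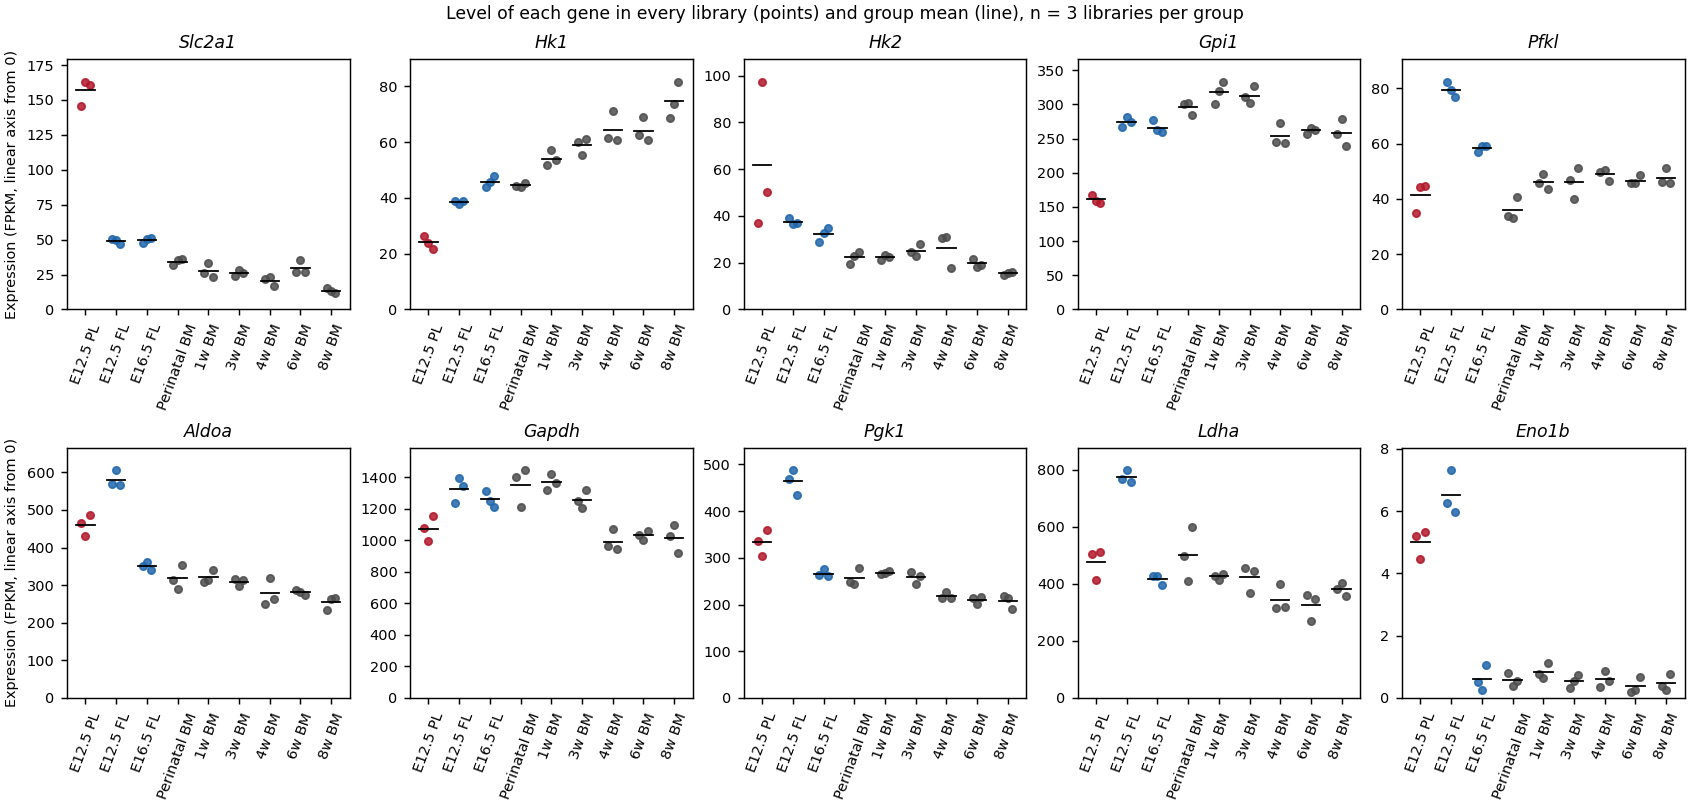
Level of each of the 10 genes in every library (points, FPKM on a linear axis from 0) with the mean of each group of 3 libraries (line). Slc2a1 stood at 146 to 163 FPKM in E12.5 PL and at most 50.9 FPKM elsewhere, Hk1 was lowest in E12.5 PL and highest in 8w BM, and Aldoa, Pgk1, Ldha and Eno1b were highest in E12.5 FL.

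The 10 genes spanned more than 3 orders of magnitude. On the per-length FPKM scale Gapdh was the most abundant in every group, with means of 991 to 1367 FPKM, and Eno1b the least, with 0.375 to 6.52 FPKM. Between them lay Ldha (326 to 774), Aldoa (255 to 580), Pgk1 (208 to 464) and Gpi1 (161 to 318), and then Slc2a1, Hk1, Hk2 and Pfkl, which stayed under 100 FPKM in every group apart from Slc2a1 in E12.5 PL. Outside E12.5 PL the ratio of the highest to the lowest group mean FPKM was 17.41 for Eno1b, 3.75 for Slc2a1, 2.44 for Hk2, 2.37 for Ldha, 2.27 for Aldoa, 2.23 for Pgk1, 2.22 for Pfkl, 1.93 for Hk1, 1.38 for Gapdh and 1.25 for Gpi1. The sum of the 10 genes, of which Gapdh was the largest term, was highest in E12.5 FL at 3629 ± 130 FPKM (0.64 to 0.653% of all FPKM), ran from 2716 to 2860 FPKM between E16.5 FL and 3w BM, and was 2245 ± 189, 2271 ± 73.9 and 2268 ± 139 FPKM at 4, 6 and 8 weeks.

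Each gene was tested with limma on log2(FPKM + 1) in 11 comparisons, and called at an adjusted p under 0.05. Fold changes below are on that scale, which understates the change of low genes such as Eno1b. In E12.5 PL against E12.5 FL, 2 of the 10 genes rose and 7 fell, where 74.2% of all 13350 genes tested were called, 41.0% higher and 33.2% lower. In E16.5 FL against E12.5 FL, 1 rose and 5 fell, against a background of 34.6% called, 19.0% higher and 15.6% lower. In 8w BM against E12.5 FL, 1 rose and 8 fell, against 50.8% called, 26.5% higher and 24.3% lower. Eno1b is 1 of those that fell in each of the last 2 counts, and it passed the filter only through its level in the E12.5 groups. The median log2 difference of the 10 genes was -0.41, -0.33 and -1.09 in these 3 comparisons, beside 0.06, 0.01 and 0.01 over all genes tested. The last 2 of these medians also include Eno1b.

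The single steps after E16.5 called few of the 10 genes. In Perinatal BM against E16.5 FL none rose and 2 fell (28.4% of all genes called, 14.2% higher and 14.2% lower), and in 1w BM against Perinatal BM 2 rose and none fell (17.6% called, 8.60% higher and 8.97% lower). In 3w BM against 1w BM no member was called, where 10.4% of all genes were, 5.69% higher and 4.76% lower. By limma, 0 members had an unadjusted p under 0.05 there. The Eno1b signal was called at this step once it was summed with Eno1, which fell on its own (-0.37, adjusted p = 0.0365). In 4w BM against 3w BM 3 fell (9.28% of all genes called, 4.72% higher and 4.56% lower), in 6w BM against 4w BM 1 rose (3.94% called, 2.59% higher and 1.35% lower), and in 8w BM against 6w BM 1 fell (8.18% called, 2.97% higher and 5.21% lower). Over the longer spans, 2 rose and 6 fell in 8w BM against Perinatal BM (37.8% called, 19.2% higher and 18.6% lower), and 1 rose and 6 fell in 8w BM against E16.5 FL (40.2% called, 20.5% higher and 19.7% lower), with median differences of -0.31 and -0.30, beside 0.00 for all genes. Where a group enters several comparisons, the same libraries enter each of them. When the 3 E12.5 PL libraries were left out of the fit, the counts of members changed moved in 2 of the 10 comparisons that can be made without them, both through Hk2.

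**Figure D2:**
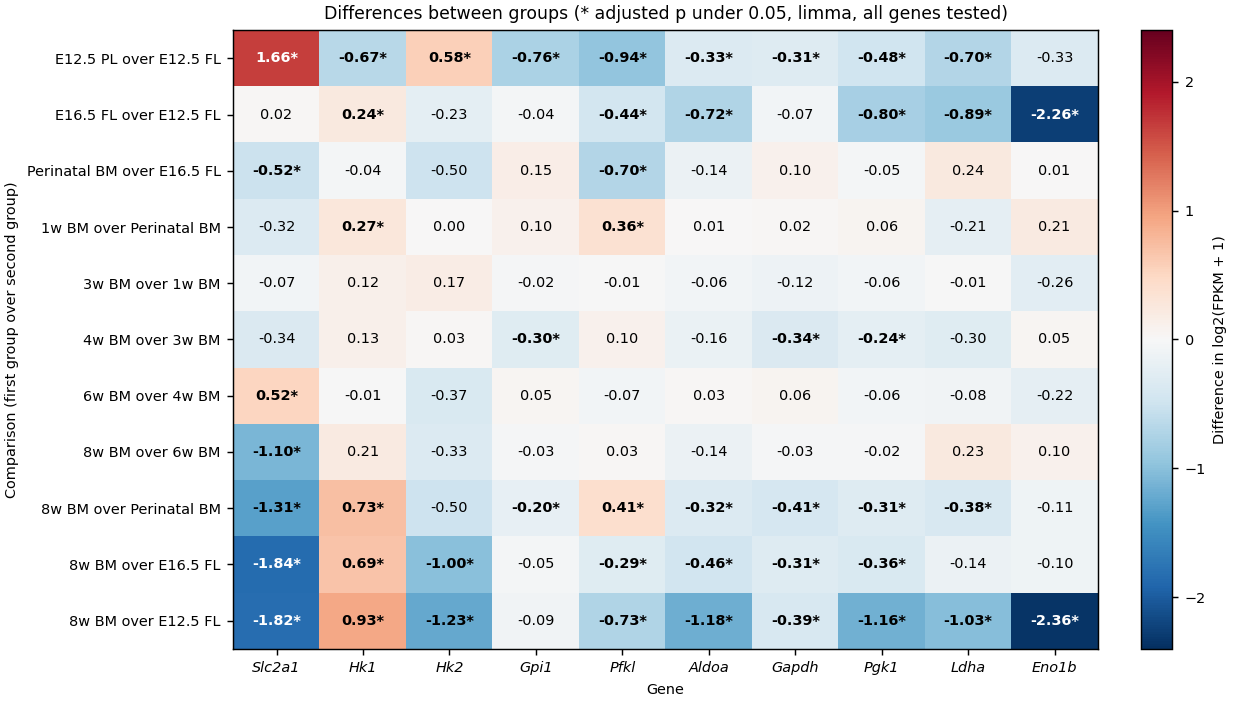
Difference of each gene (columns) in each of the 11 comparisons (rows, group named before "over" minus the group after it), in log2(FPKM + 1), with colour for sign and size and a star at adjusted p under 0.05 (limma, all genes tested). The Slc2a1 column runs from 1.66 in E12.5 PL over E12.5 FL to -1.84 in 8w BM over E16.5 FL, and the row of 3w BM over 1w BM holds no star.

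Slc2a1, which lets glucose enter by facilitated diffusion, lost the largest share of its level over the BM series. It was at 146, 163 and 161 FPKM in the E12.5 PL libraries, against 50.5, 49.9 and 46.5 FPKM in the E12.5 FL libraries. The lowest PL library was thus well above the highest FL library, and Slc2a1 rose by 1.66 ± 0.12 on the log2 scale (SE, adjusted p = 2.9e-11). The part of the trophoblast and stromal RNA in this and the other differences between E12.5 PL and E12.5 FL was not tested, and in bulk RNA a change in the make-up of the cells and a change in RNA per cell, such as fewer cells of a type and less RNA in each, cannot be told apart. In E16.5 FL the values were 47.4, 50.7 and 50.9 FPKM, which overlap those of E12.5 FL (0.02 ± 0.12, adjusted p = 0.936).

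From there the transporter gene declined in BM. It was at 31.6, 35.1 and 36.2 FPKM in Perinatal BM, against the 47.4 to 50.9 FPKM of E16.5 FL, with no overlap, and fell by 0.52 ± 0.12 on the log2 scale (adjusted p = 0.00302). Group means in BM then ran 34.3 ± 2.37, 27.5 ± 5.07, 26 ± 2.1, 20.4 ± 3.28, 29.6 ± 4.93 and 13.2 ± 1.75 FPKM from Perinatal to 8 weeks. The order was therefore not monotone, and neighbours from Perinatal BM to 4w BM did not pass the test, though 1w BM was called lower than Perinatal BM without 1w BM replicate 2 (-0.46, adjusted p = 0.0193). The 8w BM libraries, at 15.1, 13 and 11.7 FPKM, lay below the 6w BM libraries at 26.7, 35.3 and 26.8 FPKM, and Slc2a1 was 2.14-fold lower at 8 weeks (SE 0.12 on the log2 scale, adjusted p = 9.79e-06). In a fit of these 6 libraries alone the adjusted p was 0.0678. Against 4w BM (21.6, 22.9 and 16.7 FPKM), 6w BM rose by 0.52 ± 0.12 (adjusted p = 0.0205). That call was lost without 4w BM replicate 3 (0.38, adjusted p = 0.144) or without 6w BM replicate 2 (0.39, adjusted p = 0.153). Against Perinatal BM, 8w BM was 2.49-fold lower (adjusted p = 3.37e-08), with every 8w BM library below every Perinatal BM library.

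The second glucose transporter of blood cells, Slc2a3 (GLUT3), moved against Slc2a1 in E12.5 PL. It averaged 9.06 ± 2.15 FPKM in E12.5 PL and 40.2 ± 1.07 FPKM in E12.5 FL, and fell by 2.06 on the log2 scale (SE 0.125, difference -2.06, adjusted p = 5.65e-13). Like Slc2a1 it fell in Perinatal BM, at 29.5 ± 1.07 FPKM, against 41.9 ± 2.25 FPKM in E16.5 FL (-0.49, SE 0.125, adjusted p = 0.00513), and in 8w BM against E16.5 FL (-0.68, SE 0.125, adjusted p = 0.000143). It also fell in 1w BM against Perinatal BM (-0.42, SE 0.125, adjusted p = 0.0229). Of the summed Slc2a1 and Slc2a3 FPKM, Slc2a1 made up 94.5 ± 1.54% in E12.5 PL, 54.9 ± 0.534% in E12.5 FL, 51.9 to 55.5% in each group from E16.5 FL to 3w BM, 39.8 ± 6.49% at 4 weeks, 48.3 ± 1.59% at 6 weeks and 34 ± 3.93% at 8 weeks (SD, n = 3 each). On this per-length scale GLUT1 transcripts thus exceeded GLUT3 transcripts in E12.5 PL and fell short of them in 8w BM.

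Of 14 other genes of glucose and lactate transport, 9 were tested. In E12.5 PL against E12.5 FL 5 of them rose and 3 fell, among them Bsg, the chaperone of lactate transporters, which stood at 553 ± 99.6 FPKM in E12.5 PL and 162 ± 11 FPKM in E12.5 FL. Slc16a3, the lactate exporter MCT4, was at 5.66 ± 1.15 FPKM in E16.5 FL and 18.9 ± 1.75 FPKM in E12.5 FL (difference -1.59, SE 0.152, adjusted p = 8.87e-08), and at 3.28 ± 0.852 FPKM in 8w BM. Over 8w BM against E12.5 FL 4 rose and 4 fell, with a median difference of 0.08, beside 0.01 for all genes. Of all genes tested, 26.5% were higher and 24.3% lower there. In E12.5 PL against E12.5 FL 41.0% were higher and 33.2% lower.

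The hexokinases changed in opposite directions over development. Hk1, the housekeeping form that binds mitochondria, was lowest in E12.5 PL at 26.5, 23.9 and 21.5 FPKM, against 39, 37.9 and 39 FPKM in E12.5 FL. No PL library reached the FL range, and Hk1 was 1.59-fold lower in PL (difference -0.67, SE 0.08, adjusted p = 3.79e-08). Its group means then ran 38.6 ± 0.639, 45.8 ± 1.87, 44.5 ± 0.804, 54.1 ± 2.63, 58.8 ± 3.05, 64.5 ± 5.71, 64.1 ± 4.31 and 74.6 ± 6.58 FPKM from E12.5 FL to 8w BM. Hk1 was the one member that rose in 8w BM against each of E12.5 FL (0.93 ± 0.08, adjusted p = 1.03e-09), E16.5 FL (0.69 ± 0.08, adjusted p = 2.15e-07) and Perinatal BM (0.73 ± 0.08, adjusted p = 1.45e-07).

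The single steps of Hk1 were smaller. E16.5 FL, at 44, 45.6 and 47.8 FPKM, rose by 0.24 ± 0.08 over E12.5 FL (adjusted p = 0.0185), a call lost without E12.5 FL replicate 2 (adjusted p = 0.0603) or without E16.5 FL replicate 3 (adjusted p = 0.0743). The 1w BM libraries, at 51.9, 57 and 53.5 FPKM, were all above those of Perinatal BM, at 44.3, 43.9 and 45.5 FPKM (0.27 ± 0.08, adjusted p = 0.0163), a call lost without 1w BM replicate 2 (adjusted p = 0.0704). Neighbouring groups from 1w BM to 8w BM did not pass the test.

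Hk2, the hexokinase of growing and insulin-responsive tissues, went the other way. Its means were 37.6 ± 1.49, 32.1 ± 3.15, 22.4 ± 2.59, 22.3 ± 1.03, 25.2 ± 2.53, 26.4 ± 7.42, 19.7 ± 1.83 and 15.4 ± 0.525 FPKM from E12.5 FL to 8w BM. The 8w BM libraries, at 14.8, 15.7 and 15.8 FPKM, lay below the E12.5 FL libraries, at 39.3, 36.6 and 36.9 FPKM, and Hk2 was 2.35-fold lower (difference -1.23, SE 0.22, adjusted p = 6.37e-05). Against E16.5 FL it was 2.01-fold lower in 8w BM (adjusted p = 0.000816).

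Relative to its mean, Hk2 had the widest spread of the 10 genes in E12.5 PL, where its libraries held 36.9, 97.4 and 50.4 FPKM. The lowest of them lay inside the E12.5 FL range, and the call of a rise (0.58 ± 0.22, adjusted p = 0.0208) was lost without PL replicate 2 (0.19, adjusted p = 0.307) or without E12.5 FL replicate 2 (0.56, adjusted p = 0.0504), and in a fit of these 6 libraries alone (adjusted p = 0.129). Stromal marker sums in E12.5 PL ran from 5319 to 12453 FPKM, and their part in this spread was not tested. The wide PL spread also entered the shared error: without the PL libraries, Hk2 fell in Perinatal BM against E16.5 FL (-0.50, adjusted p = 0.00852) and in 8w BM against Perinatal BM (-0.50, adjusted p = 0.00642), neither of which was called with them (adjusted p = 0.0911 and 0.0748). In 4w BM, replicate 3 held 17.8 FPKM and the other libraries 30.4 and 30.9 FPKM.

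Another isoform, Hk3, known from myeloid cells, was low in E12.5 FL and abundant in 8w BM. It was at 40.1, 51 and 50.2 FPKM in the 8w BM libraries, against 0.781, 0.859 and 0.889 FPKM in the E12.5 FL libraries. The groups were far apart, with a difference of 4.70 on the log2 scale (SE 0.277, adjusted p = 4.1e-12). It rose at each step from E12.5 FL to 1w BM (0.79, 1.09 and 1.60, adjusted p = 0.0301, 0.00508 and 0.000383).

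Of the summed FPKM of Hk1, Hk2, Hk3 and Hkdc1, Hk2 held 48.8 ± 0.836% in E12.5 FL, 40 ± 1.91% in E16.5 FL, 30.5 ± 3.21% in Perinatal BM, 23.1 ± 0.819% in 1w BM and 11.3 ± 0.664% in 8w BM (SD, n = 3 each). Hk3 held 1.09 ± 0.0937%, 2.88 ± 1.24%, 8.68 ± 4.44%, 20.6 ± 3.94% and 34.3 ± 1.97% in the same groups, and Hk1 between 49.2 and 60.8% in each group outside E12.5 PL. Of 10 neutrophil markers, 6 in 8w BM and 4 in E12.5 FL averaged at least 1 FPKM, with Retnlg at 0 in both groups and Camp and Ngp at 0 in E12.5 FL. They summed to 2234 to 2714 FPKM in 8w BM and 755 to 892 FPKM in E12.5 FL. In 8w BM the sum was mainly Mpo (1518 ± 118 FPKM), Prtn3 (573 ± 76.6 FPKM) and Elane (384 ± 62.7 FPKM). The other neutrophil markers averaged at most 6.52 FPKM there. Ltf alone averaged lower in 8w BM (0.0934 ± 0.0402 FPKM) than in E12.5 FL (0.605 ± 0.14 FPKM). The 10 markers of monocytes and macrophages summed to 159 to 238 FPKM in 8w BM and 50.3 to 60.1 FPKM in E12.5 FL. The part of both marker lists in the Hk3 level was not tested. In E12.5 PL a further isoform, Hkdc1, averaged 28.4 ± 13.4 FPKM, against 0.028 ± 0.0262 FPKM in E12.5 FL.

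**Figure D3:**
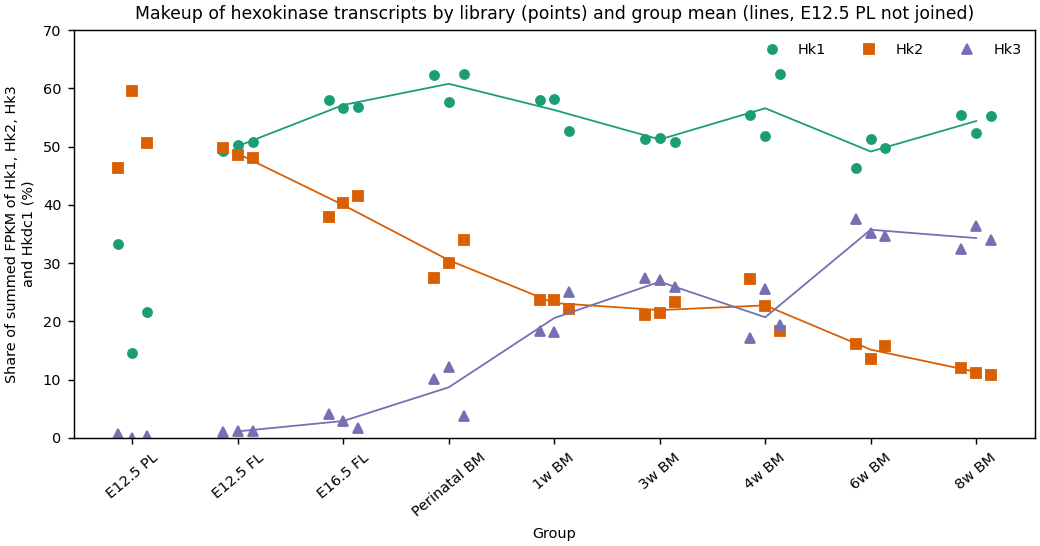
Share of each of Hk1, Hk2 and Hk3 in the summed FPKM of Hk1, Hk2, Hk3 and Hkdc1 (percent, linear axis from 0), by library (points) and group mean (lines, E12.5 PL not joined). The Hk2 share was 11.3% in 8w BM and 48.8% in E12.5 FL, and the Hk3 share was 34.3% in 8w BM and 1.09% in E12.5 FL.

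Gpi1, which converts glucose-6-phosphate to fructose-6-phosphate, was the steadiest of the 10 genes outside E12.5 PL. It was at 168, 159 and 155 FPKM in E12.5 PL, against 267, 281 and 274 FPKM in E12.5 FL. The groups did not overlap, and Gpi1 was 1.70-fold lower in PL (difference -0.76, SE 0.06, adjusted p = 1.14e-10). Its means were 266 ± 9.45 FPKM in E16.5 FL, 296 ± 9.39 in Perinatal BM, 318 ± 15.8 in 1w BM and 313 ± 13.1 in 3w BM, then 254 ± 16.7, 262 ± 4.21 and 258 ± 19.6 FPKM at 4, 6 and 8 weeks.

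The step between 3 and 4 weeks was the one called for Gpi1 within the BM steps. The 4w BM libraries held 245, 273 and 243 FPKM, all below the 311, 302 and 327 FPKM of 3w BM (difference -0.30, SE 0.06, adjusted p = 0.00478). Gapdh and Pgk1 fell at the same step. The 4w BM libraries held 960, 1069 and 944 FPKM of Gapdh, against 1251, 1203 and 1315 FPKM in 3w BM, with no overlap (-0.34 ± 0.09, adjusted p = 0.016). Pgk1 was at 214, 226 and 215 FPKM in 4w BM, against 269, 245 and 261 FPKM in 3w BM, also with no overlap (-0.24 ± 0.07, adjusted p = 0.0309). Without 4w BM replicate 2, 6 members fell at this step, with Slc2a1, Aldoa and Ldha besides (adjusted p = 0.0443, 0.032 and 0.0452). Without 3w BM replicate 1 or 3, or without 4w BM replicate 1 or 3, only Gpi1 was called, and in a fit of these 6 libraries alone no member was. Of 10 neutrophil markers, 5 in 4w BM and 8 in 3w BM averaged at least 1 FPKM. They summed to 836 to 2506 FPKM in 4w BM and 2915 to 3178 FPKM in 3w BM. Mpo, Prtn3 and Elane were the largest terms of both sums. Mpo averaged 923 ± 576 FPKM in 4w BM and 1922 ± 104 FPKM in 3w BM. The part of these markers in the fall was not tested.

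Pfkl encodes one of 3 phosphofructokinase subunits, the enzyme of the committed step. It was at 34.8, 44.4 and 44.7 FPKM in E12.5 PL, against 82.3, 79.5 and 76.7 FPKM in E12.5 FL, and was 1.91-fold lower in PL (difference -0.94, SE 0.09, adjusted p = 3.47e-09). E16.5 FL, at 57.1, 59.1 and 59.2 FPKM, was below E12.5 FL in every library (-0.44 ± 0.09, adjusted p = 0.000954). Perinatal BM, at 33.8, 33 and 40.6 FPKM, was in turn below E16.5 FL in every library (-0.70 ± 0.09, adjusted p = 8.53e-06).

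Pfkl thus had its minimum in Perinatal BM, not at 8 weeks. In 1w BM it was at 45.7, 48.9 and 43.7 FPKM, above every Perinatal BM library (0.36 ± 0.09, adjusted p = 0.00959), though the call was lost without Perinatal BM replicate 2 (0.31, adjusted p = 0.0523). From 1w BM to 8w BM its means lay between 45.9 and 48.9 FPKM and no step was called. Mast cell and basophil markers, 12 of 12 with a mean of at least 1 FPKM in Perinatal BM and 7 of 12 in E16.5 FL, summed to 1545 to 4153 FPKM in Perinatal BM and 15 to 63.1 FPKM in E16.5 FL, and were at 117 to 191 FPKM in 1w BM. Their part in the Perinatal minimum was not tested. The sister gene Pfkp averaged 12.3 ± 1.19 FPKM in Perinatal BM and 7.85 ± 1.51 FPKM in E16.5 FL (difference 0.59, SE 0.12, adjusted p = 0.000785). With Pfkl itself lower and Pfkp higher, Pfkl made up 52.1 ± 2.81% of summed phosphofructokinase FPKM in Perinatal BM and 66.7 ± 1.53% in E16.5 FL. In E12.5 PL the share was 49.2 ± 2.37%, against 76.1 ± 0.724% in E12.5 FL.

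Aldoa, Pgk1 and Ldha, which act at the cleavage of fructose bisphosphate, at ATP formation and at the reduction of pyruvate, all fell in E16.5 FL against E12.5 FL. The windows upstream of their annotated starts are shown because these 3 genes moved together. That of Gpi1 is shown beside them. Of the members for which a window was found, Gpi1 is the one without a match in any window. Each line gives 250 bases ending just before the start, 5′ to 3′ on the gene's strand, from RefSeq (GRCm38.p6). In GENCODE M21 the Aldoa, Pgk1 and Ldha windows overlap no annotated exon, and the Gpi1 window overlaps an exon of the lincRNA gene Gm12762. Capitals mark ACGTG or GCGTG on either strand, the core bound by hypoxia-inducible factors; ACGTG overlaps the E-box CACGTG bound by Myc. The windows are chr7:126799255-126799504 (minus strand, the second of 3 Aldoa starts listed), chrX:106186850-106187099 (plus strand), chr7:46845554-46845803 (plus strand, the first of 2 Ldha starts listed) and chr7:34230337-34230586 (minus strand).
Aldoa: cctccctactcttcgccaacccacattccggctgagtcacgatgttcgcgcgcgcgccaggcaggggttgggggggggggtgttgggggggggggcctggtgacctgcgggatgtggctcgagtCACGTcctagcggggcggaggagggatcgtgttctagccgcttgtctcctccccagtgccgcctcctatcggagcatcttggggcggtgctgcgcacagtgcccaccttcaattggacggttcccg
Pgk1: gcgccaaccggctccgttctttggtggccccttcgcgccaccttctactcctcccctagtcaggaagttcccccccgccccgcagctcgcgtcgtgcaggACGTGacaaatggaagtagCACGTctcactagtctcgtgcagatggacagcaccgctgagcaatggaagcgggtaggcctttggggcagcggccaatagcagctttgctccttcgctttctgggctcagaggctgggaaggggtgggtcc
Ldha: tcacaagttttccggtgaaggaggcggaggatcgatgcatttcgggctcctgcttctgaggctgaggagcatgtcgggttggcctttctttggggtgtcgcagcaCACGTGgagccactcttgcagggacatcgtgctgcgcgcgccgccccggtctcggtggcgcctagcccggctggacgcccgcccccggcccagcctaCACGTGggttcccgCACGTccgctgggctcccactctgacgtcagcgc
Gpi1: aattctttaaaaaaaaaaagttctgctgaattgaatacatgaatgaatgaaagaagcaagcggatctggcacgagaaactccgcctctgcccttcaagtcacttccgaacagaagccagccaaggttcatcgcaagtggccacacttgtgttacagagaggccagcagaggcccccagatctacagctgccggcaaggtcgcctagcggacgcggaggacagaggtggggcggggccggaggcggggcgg

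The Ldha window holds 2 copies of CACGTG and 5 matches of ACGTG counted on both strands, where each CACGTG counts on both. The Pgk1 window holds 2 matches of ACGTG, the Aldoa window 1, and the Gpi1 window neither ACGTG nor GCGTG. Windows were found for 9 of the 10 genes, and 8 of the 9 held ACGTG or GCGTG in at least 1 window, among them Slc2a1, Hk2 and Gapdh, which were not called in E16.5 FL against E12.5 FL, and Hk1, which rose. With a match in 8 of the 9, having one cannot separate the members that fell from the others, and no conclusion is drawn from it. Of 13 windows in all, 10 held a match, and 2 of these, both of Aldoa, overlap each other. Over 32851 mouse windows of this length the share was 38.6%; 16.6% held ACGTG and 6.02% CACGTG, and 1.22% held ACGTG 3 or more times. A match describes the letters of the window and is not a measured binding site.

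The E16.5 FL libraries held 350, 361 and 341 FPKM of Aldoa, against 570, 605 and 567 FPKM in E12.5 FL. They held 263, 275 and 261 FPKM of Pgk1, against 469, 487 and 435 FPKM in E12.5 FL. Of Ldha they held 429, 427 and 397 FPKM, against 767, 797 and 757 FPKM in E12.5 FL. None of these groups overlapped. Aldoa was 1.65-fold lower at E16.5 (difference -0.72, SE 0.08, adjusted p = 9.7e-07), Pgk1 1.74-fold (-0.80, SE 0.07, adjusted p = 1.86e-08) and Ldha 1.85-fold (-0.89, SE 0.13, adjusted p = 1.41e-05). Markers of other blood lineages moved at the same step. Of 10 neutrophil markers, 9 in E16.5 FL and 4 in E12.5 FL averaged at least 1 FPKM. Their sums were 895 to 1859 FPKM in E16.5 FL and 755 to 892 FPKM in E12.5 FL, where Camp, Ngp and Retnlg were at 0. S100a8 averaged 243 ± 123 FPKM in E16.5 FL and 1.62 ± 0.926 FPKM in E12.5 FL. Mpo, the largest term of both sums, averaged 570 ± 149 FPKM in E16.5 FL and 675 ± 45.2 FPKM in E12.5 FL. The other neutrophil markers averaged higher in E16.5 FL. Of 10 B cell markers, 10 in E16.5 FL and 3 in E12.5 FL averaged at least 1 FPKM. Their sums were 83 to 249 FPKM in E16.5 FL and 27.4 to 30.9 FPKM in E12.5 FL, where Pax5 was at 0. Rag2 averaged 2.28 ± 0.394 FPKM in E16.5 FL and 3.3 ± 0.45 FPKM in E12.5 FL. The other B cell markers averaged higher in E16.5 FL. Mean relative depth was 1.01 in E16.5 FL and 1.52 in E12.5 FL. The part of these cells and of depth in the fall was not tested.

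After E16.5 the single step called for these 3 genes was that of Pgk1 in 4w BM, given above. Aldoa averaged 351 ± 9.78, 319 ± 32.7, 321 ± 16.6, 309 ± 10.4, 278 ± 37.3, 281 ± 6.24 and 255 ± 17.6 FPKM from E16.5 FL to 8w BM, with no single step called. Between 8w BM and E16.5 FL it fell by 0.46 ± 0.08 on the log2 scale (difference -0.46, adjusted p = 0.000124), and Pgk1 by 0.36 ± 0.07 (difference -0.36, adjusted p = 0.000219). Ldha was at 380, 402 and 358 FPKM in 8w BM, against 429, 427 and 397 FPKM in E16.5 FL, ranges that overlap (-0.14 ± 0.13, adjusted p = 0.422). Ldha also had the widest spread of the 3 in Perinatal BM, with 496, 408 and 598 FPKM.

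In E12.5 PL the 3 genes averaged between the E12.5 and E16.5 FL means. Aldoa was at 466, 431 and 486 FPKM in E12.5 PL, Pgk1 at 337, 303 and 359 FPKM and Ldha at 504, 414 and 512 FPKM. Each was below its E12.5 FL range, with differences of -0.33 ± 0.08, -0.48 ± 0.07 and -0.70 ± 0.13 (adjusted p = 0.001, 1.35e-06 and 2.57e-05). The other lactate dehydrogenase subunit gene, Ldhb, went the other way, with 74.9 ± 5.67 FPKM in E12.5 PL and 17.3 ± 1.61 FPKM in E12.5 FL (2.05, SE 0.109, adjusted p = 4.08e-14). Ldha held 86.2 ± 1.39% of summed LDH FPKM in E12.5 PL, 97.8 ± 0.155% in E12.5 FL and 92.6 to 95.4% in each later group.

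Gapdh, which oxidises glyceraldehyde-3-phosphate and is often used as a reference transcript, was not called between the FL groups, where its neighbours in the pathway fell. It was at 1311, 1251 and 1213 FPKM in E16.5 FL and 1237, 1395 and 1346 FPKM in E12.5 FL, ranges that overlap (-0.07 ± 0.09, adjusted p = 0.556). It averaged 1350 ± 123, 1367 ± 49 and 1256 ± 56.3 FPKM in Perinatal, 1w and 3w BM and 1015 ± 89.2 FPKM in 8w BM, and was 1.33-fold lower in 8w BM than in Perinatal BM (difference -0.41, SE 0.09, adjusted p = 0.000677). In E12.5 PL it was at 1076, 994 and 1151 FPKM, below every E12.5 FL library (-0.31 ± 0.09, adjusted p = 0.00292).

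**Figure D4:**
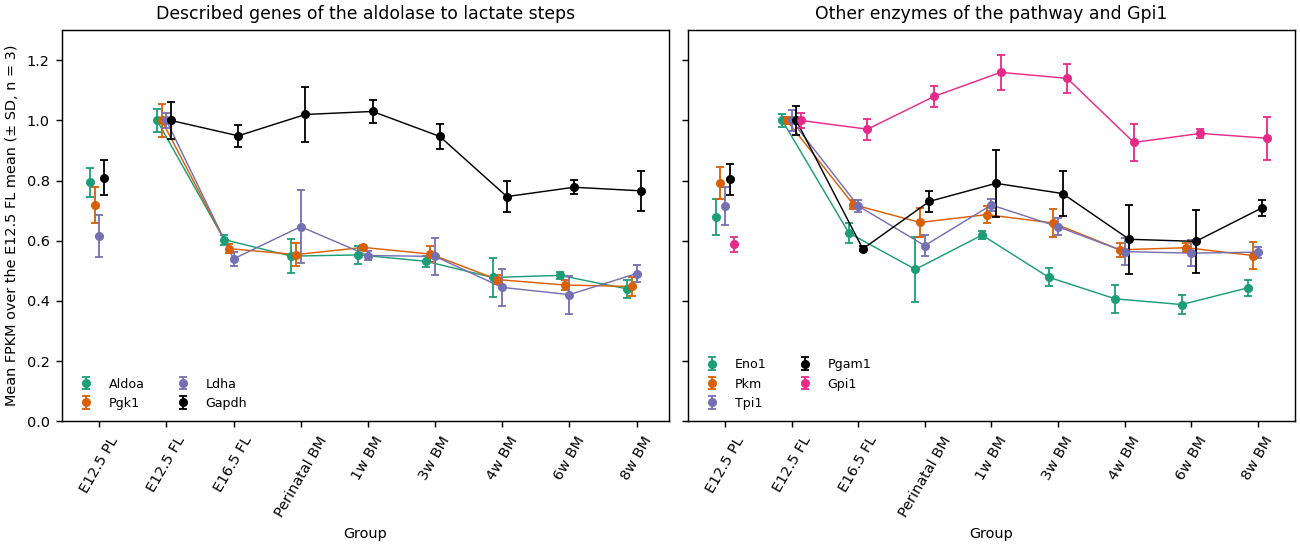
Mean level of Aldoa, Pgk1, Ldha and Gapdh (left) and of Eno1, Pkm, Tpi1, Pgam1 and Gpi1 (right) in each group, divided by the gene's E12.5 FL mean (ratio, linear axis from 0; bars are SD, n = 3, E12.5 PL not joined). In E16.5 FL Aldoa stood at 0.604 and Gapdh at 0.949 of its E12.5 FL mean.

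The enzymes of the pathway outside these 10 genes were also divided. Of 20 others listed, 16 were tested; in E16.5 FL against E12.5 FL 5 rose and 4 fell, with a median difference of 0.04, beside 0.01 for all genes. Those that fell included Pkm, the main pyruvate kinase (-0.47, SE 0.0702, adjusted p = 2.51e-05), Tpi1, triosephosphate isomerase (-0.48, SE 0.0711, adjusted p = 2.41e-05) and Pgam1, phosphoglycerate mutase (-0.80, SE 0.12, adjusted p = 2.85e-05). Those that rose included the low genes Pklr, the liver and red cell pyruvate kinase (2.48, SE 0.262, adjusted p = 3.55e-07), and Aldoc, at 3.07 ± 0.703 FPKM in E16.5 FL and 0.674 ± 0.198 FPKM in E12.5 FL. In 8w BM against E12.5 FL 6 of the 16 rose and 4 fell, where 26.5% of all genes were higher and 24.3% lower. In E16.5 FL against E12.5 FL these shares were 19.0% and 15.6%. Pkm was at 337 ± 26.7 FPKM in 8w BM and 610 ± 6.46 FPKM in E12.5 FL.

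Eno1b had the lowest level of the 10 genes. RefSeq places it at chr18:48045335-48048379 (GRCm38.p6), away from Eno1 on chromosome 4. It was at 0.504, 0.249 and 1.05 FPKM in E16.5 FL, against 6.26, 7.31 and 5.99 FPKM in E12.5 FL, with no overlap. E12.5 PL held 5.21, 4.46 and 5.33 FPKM, below the E12.5 FL range but not called (-0.33 ± 0.18, adjusted p = 0.103), though it was called in a fit of these 6 libraries alone (adjusted p = 0.0394). From E16.5 FL to 8w BM all 21 libraries lay between 0.201 and 1.11 FPKM, so the gene passed the filter through the E12.5 groups, had to differ from them, and its calls against E12.5 FL are no evidence of a fall.

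The Eno1b value cannot be read apart from Eno1. Over 1652 aligned columns the annotated transcripts were 99.5% identical, and 75.3% of the 50-base words of Eno1b also occur in Eno1. Eno1 itself was at 325, 360 and 350 FPKM in E16.5 FL, against 549, 564 and 540 FPKM in E12.5 FL (-0.67 ± 0.11, adjusted p = 9.18e-05), and at 375 ± 33.3 FPKM in E12.5 PL. Eno1b made up 1.32 ± 0.00938% of the Eno1 and Eno1b sum in E12.5 PL, 1.17 ± 0.0986% in E12.5 FL and 0.173 to 0.258% in each later group. How the authors' counting assigned reads shared by both is not given in the sources used here. Summed with Eno1, the enolase signal was called lower in E12.5 PL than in E12.5 FL (-0.56, adjusted p = 0.000117).

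A processed pseudogene of Gapdh, singled out after its values were seen, showed the same step. Gm12070 (chr11:26786633-26787634, GENCODE M21 on GRCm38) shares 65.9% of the 50-base words of Gapdh. It was at 22.8, 17.7 and 17.8 FPKM in E12.5 PL, 21.1, 24.6 and 23.4 FPKM in E12.5 FL and 1.75 to 4.95 FPKM in the 21 later libraries. As a percentage of Gapdh FPKM it was 1.81 ± 0.284 in E12.5 PL, 1.73 ± 0.0299 in E12.5 FL and 0.228 to 0.344 in the later groups, while Gapdh itself was not called between the FL groups. No test is given for it. Both E12.5 groups were also the groups of greatest mean relative depth (1.27 in PL and 1.52 in FL, against 0.81 to 1.05 in the later groups). Single libraries overlapped, with E12.5 PL replicate 2 at 1.17, 6w BM replicate 3 at 1.17 and 8w BM replicate 3 at 1.18. The part of depth was not tested. The labels name no sequencing run or batch, so whether these groups were run apart is not known. By the same measure of shared words, Slc2a1, Hk1 and Hk2 shared none with another annotated gene, Pfkl 0.0543%, Aldoa 13.5%, Ldha 16.6%, Gpi1 19.3%, Pgk1 68% and Gapdh 82.5%.

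**Figure D5:**
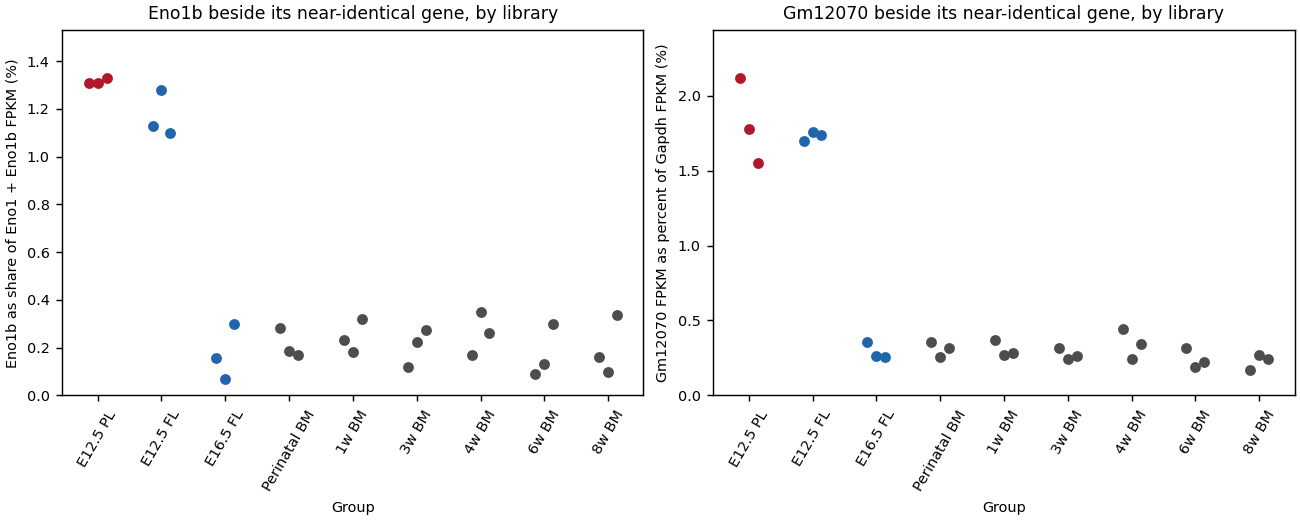
FPKM of Eno1b as a share of the Eno1 and Eno1b sum (left) and of Gm12070 as a percentage of Gapdh (right), by library (percent, linear axes from 0). All 6 E12.5 libraries lay between 1.1 and 1.33% on the left and between 1.55 and 2.12% on the right, and the 21 later libraries at most at 0.347 and 0.444%.

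Across the 24 libraries outside E12.5 PL, Pearson's r of log2(FPKM + 1) was 0.96 between Aldoa and Pgk1, 0.93 between Pgk1 and Ldha and 0.90 between Aldoa and Ldha, as a description over libraries that share groups. Hk1 had a negative r to each of the other 9 genes, with -0.84 to Slc2a1 and -0.81 to Pgk1. Part of this pattern rests on E12.5 FL: over the 21 libraries of the later groups r between Hk1 and Pfkl was 0.19, against -0.39 with E12.5 FL, and between Hk1 and Eno1b -0.15, against -0.61. In the same 21 libraries r was 0.82 between Aldoa and Pgk1 and 0.77 between Pgk1 and Ldha, Gapdh came closest to Pgk1 with 0.92, and r between Eno1b and Aldoa was 0.34, against 0.90 with E12.5 FL included. The non-member genes most like the mean of the 10 standardised genes over the 24 libraries were Pkm (r = 0.980), the ATP synthase subunit Atp5b (0.970), the mitochondrial chaperone Hspa9 (0.962), Tpi1 (0.955) and the chaperonin subunit Cct6a (0.949).

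Of 19 known regulators of glucose flux, 18 were tested, and in E16.5 FL against E12.5 FL 4 rose and 3 fell, close to the 19.0% higher and 15.6% lower over all genes. Txnip, which limits glucose uptake and is induced by glucose, was at 203 ± 26.3 FPKM in E16.5 FL and 67.8 ± 6.75 FPKM in E12.5 FL (1.57, SE 0.167, adjusted p = 3.94e-07). Myc was at 62.6 ± 3.91 FPKM in E16.5 FL and 106 ± 5.09 FPKM in E12.5 FL (-0.75, SE 0.129, adjusted p = 0.000122). In 8w BM against E16.5 FL 7 of these regulators rose and 5 fell, with a median difference of -0.15. Of the 10 glycolysis genes 1 rose and 6 fell there, with a median of -0.30. Over all genes tested, 20.5% were higher and 19.7% lower, with a median of 0.00. Myc stood at 198 ± 24.5 FPKM in 8w BM and rose over E16.5 FL (1.64, SE 0.129, adjusted p = 1.2e-09). Its relative Mycn fell in the same comparison (-2.38, SE 0.24, adjusted p = 5.42e-08). The part of either in the levels of the 10 genes was not tested.

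Hif1a, a hypoxia-inducible factor subunit, was at 73.9 ± 3.68 FPKM in E12.5 PL and 36.8 ± 3.04 FPKM in E12.5 FL (0.99, SE 0.0822, adjusted p = 1.74e-10). Epas1, the related HIF2 alpha subunit abundant in endothelium, was at 120 ± 28.2 FPKM in E12.5 PL and 0.18 ± 0.0579 FPKM in E12.5 FL, and the 10 endothelial markers summed to 860 to 1113 FPKM in E12.5 PL and 282 to 308 FPKM in E12.5 FL. Their part in these levels was not tested. In 8w BM Hif1a was at 21.4 ± 1.61 FPKM, against 35.2 ± 1.63 FPKM in E16.5 FL (-0.70, SE 0.0822, adjusted p = 5.44e-07). Of 15 other genes of the hypoxia response, 9 rose and 3 fell in E12.5 PL against E12.5 FL, with a median difference of 1.18, beside 0.06 for all genes. Over all genes tested, 41.0% were higher and 33.2% lower there. Adm, the vasodilator adrenomedullin, averaged 36 ± 3.79 FPKM in E12.5 PL and 0.337 ± 0.107 FPKM in E12.5 FL. It is among the 9 that rose, but it passed the filter only through its level in E12.5 PL. Its call there is therefore no evidence of a rise. In 8w BM against E16.5 FL 1 of the 15 rose and 5 fell. Of all genes, 40.2% were called there, 20.5% higher and 19.7% lower. The one that rose was Ndrg1, a stress-responsive gene, at 44.5 ± 1.45 FPKM in 8w BM and 4.35 ± 0.876 FPKM in E16.5 FL (3.10, SE 0.107, adjusted p = 7.44e-16).

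Genes of the routes that branch from glycolysis changed in both directions. Over all genes tested, 19.0% were higher and 15.6% lower in E16.5 FL against E12.5 FL. In 8w BM against E12.5 FL 26.5% were higher and 24.3% lower. Of 8 genes of the pentose phosphate pathway, none rose and 1 fell in E16.5 FL against E12.5 FL, and 4 rose and 2 fell in 8w BM against E12.5 FL. G6pdx, its entry enzyme, was at 34.7 ± 3.65 FPKM in 8w BM and 20.3 ± 0.638 FPKM in E12.5 FL (0.74, SE 0.105, adjusted p = 3.58e-06). Of 13 genes of pyruvate entry into mitochondria, 4 rose and 6 fell in 8w BM against E12.5 FL, among them Pdha1, a pyruvate dehydrogenase subunit, at 72 ± 5.77 FPKM in 8w BM and 124 ± 3.25 FPKM in E12.5 FL (-0.78, SE 0.0624, adjusted p = 6.78e-10). The 3 of 6 gluconeogenesis genes that were tested all rose there, led by the mitochondrial carboxykinase Pck2 at 45.3 ± 2.54 FPKM in 8w BM and 17.2 ± 1.02 FPKM in E12.5 FL (1.35, SE 0.102, adjusted p = 2.63e-10).

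Mitosis genes, a sign of how many cells were dividing, fell in several of the comparisons in which members fell. In E12.5 PL against E12.5 FL 15 of 15 fell (median difference -0.83, beside 0.06 for all genes), and in 8w BM against E12.5 FL 13 fell and 1 rose (median -0.59, beside 0.01). In 4w BM against 3w BM, where Gpi1, Gapdh and Pgk1 fell, 4 mitosis genes fell (median -0.17, beside 0.00). In 8w BM against E16.5 FL 10 fell (median -0.32, beside 0.00). Of all genes tested, 33.2%, 24.3%, 4.56% and 19.7% were lower in these comparisons, in the order given. Of the 15, none rose and 8 fell in E16.5 FL against E12.5 FL (median difference -0.25, beside 0.01 for all genes). Over all genes, 19.0% were higher and 15.6% lower at this step, at which Aldoa, Pgk1 and Ldha fell. In Perinatal BM against E16.5 FL 12 fell (median -0.58, beside 0.00), where 14.2% of all genes were lower. In 1w BM against Perinatal BM 13 rose (median 0.42, beside 0.00), where 8.60% of all genes were higher. At both steps the same 3 glycolysis genes were not called. Slc2a1 and Pfkl fell at the first of these steps, and Pfkl and Hk1 rose at the second. In 8w BM against Perinatal BM 7 mitosis genes rose and 1 fell (median difference 0.09, beside 0.00 for all genes). There 2 of the 10 glycolysis genes rose and 6 fell (median -0.31), and 19.2% of all genes were higher and 18.6% lower. Cdk1, the kinase of entry into mitosis, averaged 65.7 ± 1.13 FPKM in E12.5 FL, 43.8 ± 2.05 in E16.5 FL, 35.1 ± 0.0531 in Perinatal BM, 43.2 ± 2.99 in 1w BM and 34.9 ± 3.89 in 8w BM. The part of cell division in the levels of the 10 genes was not tested.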

How the data were processed

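Values were used as deposited by the authors, as FPKM per gene and library. Per the submitters' processing notes, the tools were STAR 2.7, HTSeq 0.6.1p1, Trim Galore and FastQC, with build GRCm38. How FPKM was computed, and on which annotation, was not given in the sources used here. Genes with at least 1 FPKM in at least 3 of 27 libraries (13350 of 24418 rows) were tested on log2(FPKM + 1) with limma 3.58.1 in R 4.3.3 (9 group means, 18 residual degrees of freedom, eBayes with a trend), with Benjamini-Hochberg adjustment over all genes of a comparison and a threshold of 0.05. The code was tested on simulated data. The 10 members, the gene lists and the tests were chosen with earlier results of these data known. Up to 3 genes of a list were named per comparison, by smallest adjusted p, besides members, near copies and other enzymes of the pathway's steps. Sequence windows were read with Python 3.11.15. Results were recomputed with another pseudocount (0.1), without the filter, with a 5 FPKM filter, after median-of-ratios scaling, on subsets of libraries, with a replicate block, and with Eno1b and Eno1 summed.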

Additional observations from a re-analysis of the deposited data

How the results depend on the processing

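The number of the 10 genes called stayed within 1.5 times of the reported count under a pseudocount of 0.1, without a filter, with the 5 FPKM filter, after median-of-ratios scaling, without E12.5 PL and with a replicate block. In fits of the 6 libraries compared alone it was 1 in place of 2 for 1w BM over Perinatal BM, 0 in place of 3 for 4w BM over 3w BM, 0 in place of 1 for 6w BM over 4w BM and 0 in place of 1 for 8w BM over 6w BM. These fits have fewer samples. For E12.5 PL over E12.5 FL the count stayed at 9, but Hk2 was lost (adjusted p = 0.129) and Eno1b gained (adjusted p = 0.0394). Over all genes they called 2145 in place of 3786 for Perinatal BM over E16.5 FL, 899 in place of 2345 for 1w BM over Perinatal BM, 104 in place of 1239 for 4w BM over 3w BM, 10 in place of 526 for 6w BM over 4w BM and 6 in place of 1092 for 8w BM over 6w BM. With single libraries left out, members called ran from 8 to 9 for E12.5 PL over E12.5 FL, 5 to 6 for E16.5 FL over E12.5 FL, 2 to 3 for Perinatal BM over E16.5 FL, 1 to 2 for 1w BM over Perinatal BM, 1 to 6 for 4w BM over 3w BM and 0 to 1 for 6w BM over 4w BM. They ran from 6 to 8 for 8w BM over Perinatal BM and from 6 to 7 for 8w BM over E16.5 FL, and were 0 for 3w BM over 1w BM, 1 for 8w BM over 6w BM and 9 for 8w BM over E12.5 FL throughout. All genes called ran from 1462 to 2423 for 1w BM over Perinatal BM, 738 to 988 for 3w BM over 1w BM, 363 to 1644 for 4w BM over 3w BM, 237 to 588 for 6w BM over 4w BM and 478 to 1076 for 8w BM over 6w BM.

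Same-numbered libraries of different groups did not deviate together: the correlation of their deviations ran from -0.21 to 0.23, and 8 of 27 libraries came closest to their own number. With the replicate block, 1 call among the 10 genes changed, Slc2a1 in 1w BM over Perinatal BM (-0.32, adjusted p = 0.047). Summed with Eno1, the Eno1b difference in Perinatal BM over E16.5 FL was -0.33 (adjusted p = 0.0311) in place of 0.01, since Eno1 makes up most of the sum. In 8w BM over Perinatal BM the Ldha call was lost without Perinatal BM replicate 3 (-0.24, adjusted p = 0.143) or 8w BM replicate 3 (adjusted p = 0.0732), and the Gpi1 call without 8w BM replicate 3 (-0.15, adjusted p = 0.0963). In 8w BM over E16.5 FL the Pfkl call was lost without 8w BM replicate 1 (adjusted p = 0.0532) or replicate 3 (adjusted p = 0.0593). Ldha was called in Perinatal BM over E16.5 FL without Perinatal BM replicate 2 (0.38, adjusted p = 0.0328). Low levels limit Eno1b, which lay between 0.201 and 1.11 FPKM in the 21 later libraries.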
